A study of Mus musculus with 14 samples.

Results

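A set of 10 genes that mark blood stem cells and the lining of blood vessels was followed through 14 RNA sequencing libraries of mouse bone marrow cells: Rhoj, Adgrl4, Cd34, Esam, Eng, Tek, Procr, Emcn, Robo4 and Myct1. They are 10 of the 55367 gene symbols counted, and they were chosen by name, with their changes in these libraries already known. Their changes in both comparisons are therefore given as descriptions, with standard errors and without p-values. Counts of members past the threshold used for all genes are also given, and nothing is read from them. Rhoj and Adgrl4 were 9.46-fold and 5.39-fold higher in cells with SETBP1-D868N than in luciferase cells. With the inhibitor PF-9363, Adgrl4 was 8.05-fold lower than with the solvent, whereas Rhoj differed by 0.00 on the log2 scale. Procr was 1.33-fold lower with SETBP1-D868N, and with PF-9363 it went from a sum of 7 counts to a sum of 73. Robo4, at few counts, was 2.92-fold lower with SETBP1-D868N. Tek, also at few counts, was 1.54-fold higher with SETBP1-D868N, with overlapping groups. The remaining members tested there differed less than Procr. With PF-9363 most of the other members were at few counts.

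All libraries came from lineage-negative bone marrow cells of wild-type mice, the fraction left once mature blood cells are removed, grown in IMDM with 15% serum and the cytokines IL3, IL6 and SCF. For the first experiment the cells carried a pSMAL lentivirus with luciferase, the control, or with SETBP1-D868N, with 3 libraries each. SETBP1 is a DNA-binding nuclear protein, and D868N is a recurrent leukemia-associated form of it. In the second experiment every culture carried SETBP1-D868N, and the cells received DMSO or 2.5 µM PF-9363 for 4 days, with 4 libraries each. PF-9363 is an inhibitor of the MYST acetyltransferases, which place acetyl groups on histones. There was no luciferase arm with PF-9363, so a response of cells without SETBP1-D868N was not measured. The expression is from an added lentiviral copy in cultured cells, and the labels do not say whether the replicates came from separate mice or cultures. The p-values given for other genes therefore measure only the spread between these libraries, which may be technical.

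Blood and endothelium arise in the embryo from shared precursors, and the first stem cells bud from endothelium that has turned on blood regulators. Stem cells keep several endothelial surface proteins, which is why antibodies to CD34, ESAM, EPCR (the product of Procr), endoglin and TIE2 (the product of Tek) are used to find them. Of the 10 products, CD34 and endomucin (Emcn) are sialomucins, heavily sugared proteins that regulate adhesion. ESAM is an immunoglobulin-family adhesion protein of endothelial junctions and platelets. TIE2 is the tyrosine kinase receptor of the angiopoietins, and endoglin is a co-receptor for ligands of the TGF-beta and BMP families. EPCR binds protein C, ROBO4 is the vascular member of the roundabout receptors and ADGRL4 is an adhesion G protein-coupled receptor of endothelium. MYCT1 is a small membrane protein of endothelium and stem cells. RHOJ is the exception to the term surface: it is a small GTPase that sits on the inner face of membranes and acts in endothelial migration.

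All 10 genes lie on the plus strand of the GRCm38 assembly in the GENCODE M21 annotation. Rhoj spans chr12:75308322-75401456, Adgrl4 chr3:151437887-151545086, Cd34 chr1:194938819-194961279 and Myct1 chr10:5593775-5606904. Procr spans chr2:155751117-155755471, Eng chr2:32646595-32682669 and Tek chr4:94739289-94874976. Esam spans chr9:37528078-37538319, Robo4 chr9:37401897-37415115 and Emcn chr3:137341067-137432185. The exons of Eng overlap those of Fpgs, and the exons of Cd34 those of Gm16897, both on the opposite strand. How strand was handled in counting is not given in the sources used here, so reads of these pairs cannot be told apart.

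The promoters of Rhoj and Adgrl4 are shown because these 2 genes were the members with the largest differences between SETBP1-D868N and luciferase. The 250 bases before the start site are printed 5′ to 3′ on the plus strand, from RefSeq on GRCm38.p6, at chr12:75308063-75308312 for Rhoj and chr3:151437632-151437881 for Adgrl4. Capitals mark GGAAG, the core letters bound by ETS-family factors such as ERG and FLI1, or its reverse complement CTTCC.
Rhoj: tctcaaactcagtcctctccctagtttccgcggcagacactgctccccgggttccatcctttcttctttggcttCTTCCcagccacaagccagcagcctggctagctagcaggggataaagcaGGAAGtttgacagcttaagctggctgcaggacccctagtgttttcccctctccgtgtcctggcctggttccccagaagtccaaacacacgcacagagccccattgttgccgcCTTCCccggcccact
Adgrl4: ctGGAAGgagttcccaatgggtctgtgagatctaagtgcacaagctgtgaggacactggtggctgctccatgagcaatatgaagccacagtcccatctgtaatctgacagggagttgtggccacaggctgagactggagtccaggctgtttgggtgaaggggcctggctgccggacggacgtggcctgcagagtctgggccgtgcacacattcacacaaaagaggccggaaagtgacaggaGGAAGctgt
The Rhoj window holds 3 such matches and 1 GATAA match, and the Adgrl4 window holds 2 ETS matches. A match is a description of letters and not of a bound site. The table had promoters for 9 members, all but Esam, and GGAAG was found on either strand in 8 of these 9 windows, against 64.1% of 32851 promoters. GATAA, the GATA-factor core, was in 2 of 9 windows (Rhoj and Myct1) against 22.6% of all, and the E-box CAGCTG in 2 (Procr and Robo4) against 13.0%. The RUNX letters TGTGGT and the HOX-PBX letters TGATTTAT were in 0 of 9, against 14.05% and 0.837% of all promoters. The GC content was 58.0% for Rhoj and 56.8% for Adgrl4, with 7 and 5 CpG dinucleotides. The median over all promoters was 52.4% and 6.

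Library totals ran from 60147266 to 68730322 counts in the luciferase and SETBP1-D868N libraries, and from 7083731 to 10359093 in the DMSO and PF-9363 libraries. Levels are given as CPM, that is counts divided by the scaled total and multiplied to a common base, so 1 count is worth several times more CPM in the second experiment. Libraries of 1 group correlated over genes at r = 0.995 to 0.996 in the first experiment, against 0.984 to 0.990 for DMSO and PF-9363, and no pair of replicates differed by less than sampling noise. The counts at mouse Setbp1 were 5, 6 and 6 in luciferase and 23, 20 and 24 in SETBP1-D868N libraries, and 0 to 2 in the 8 libraries of the second experiment. Whether these counts take in the lentiviral copy is not given in the sources used here, so the second experiment has no check of its transgene. A gene was tested where it passed a filter on low counts, and it is called changed at an adjusted p under 0.05 in edgeR's quasi-likelihood test over all tested genes. That was 15794 genes in the first experiment, of which 47.2% were called, and 13456 in the second, of which 76.0% were called.

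Of the 10 members, 9 passed the filter in the first experiment, all but Emcn, and 4 passed it in the second: Rhoj, Adgrl4, Cd34 and Procr. Past the threshold with SETBP1-D868N were 4 members on the higher side (Rhoj, Adgrl4, Cd34, Myct1), where 24.5% of all tested genes were called. On the lower side were 2 members (Procr, Robo4), where 22.7% of all tested genes were called. The other 3 tested members were Esam, Eng and Tek. The groups did not overlap for 6 members in the first experiment, against 56.7% of all tested genes. With PF-9363, 1 tested member (Procr) was past the threshold on the higher side, against 36.6% of all tested genes, and 1 (Adgrl4) on the lower side, against 39.4%. The groups did not overlap for 3 of the 4 (Adgrl4, Cd34 and Procr), against 70.3%. Nothing is read from these counts, because the members were chosen from these same contrasts.

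**Figure D1:**
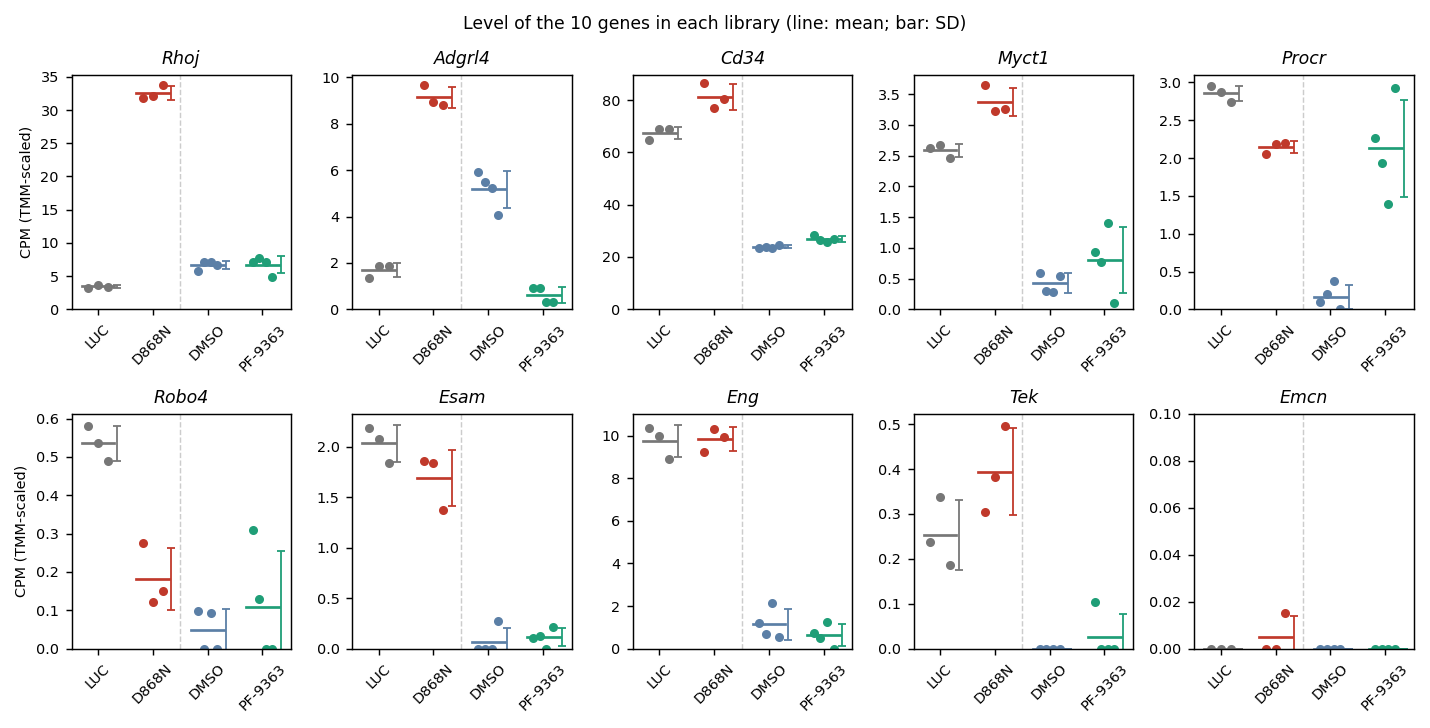
Level of each member in every library, in CPM on a linear axis from 0 that differs between panels. Points are libraries, lines are group means and bars are the SD, with luciferase (LUC) and SETBP1-D868N (D868N) left of the dashed line and the second experiment right of it. Rhoj and Adgrl4 stand apart between luciferase and SETBP1-D868N, Adgrl4 and Procr between DMSO and PF-9363, and Emcn is at 0 in 13 of 14 libraries.

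Rhoj was the member with the largest difference in the first experiment. It stood at 3.26, 3.67 and 3.39 CPM in the luciferase libraries and at 31.7, 32.1 and 33.8 CPM with SETBP1-D868N. The groups lay far apart, with means of 3.44 ± 0.21 and 32.6 ± 1.11 CPM (SD, n = 3 each) and a fitted log2 fold change of 3.24 (SE 0.06). It ranked 29 from the top among the log2 fold changes of the 15794 tested genes. In the second experiment Rhoj stood at 5.74, 7.07, 7.20 and 6.70 CPM with DMSO, and the PF-9363 libraries held 7.20, 7.72, 7.15 and 4.87 CPM. These groups overlapped, with 1 PF-9363 library below all DMSO libraries. The means were 6.68 ± 0.66 and 6.73 ± 1.27 CPM (SD, n = 4 each), and the log2 fold change was 0.00 (SE 0.18). With scaling by library size alone it was -0.22, and the middle of all genes moved by -0.23 under that scaling.

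Adgrl4, the endothelial adhesion receptor, differed in both experiments and in opposite directions. Its luciferase libraries held 1.35, 1.87 and 1.87 CPM, and its SETBP1-D868N libraries 9.66, 8.96 and 8.81 CPM. All 3 SETBP1-D868N libraries were above all luciferase libraries, with means of 1.70 ± 0.30 and 9.14 ± 0.45 CPM (SD, n = 3 each) and a fitted log2 fold change of 2.43 (SE 0.12). The DMSO libraries held 5.94, 5.48, 5.23 and 4.07 CPM. The PF-9363 libraries held 0.925, 0.900, 0.311 and 0.325 CPM, from 9, 7, 2 and 3 counts. Every PF-9363 library was below every DMSO library. The means were 5.18 ± 0.79 and 0.615 ± 0.344 CPM (SD, n = 4 each), and the log2 fold change was -3.01 (SE 0.34). Summed counts went from 216 to 21, a depth-scaled ratio of 0.123 with an exact 95% interval of 0.0745 to 0.192, which like all intervals here covers counting error only.

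Cd34 was the most abundant member, and its differences were small. It held 64.8, 68.8 and 68.8 CPM in luciferase libraries and 86.6, 76.8 and 80.2 CPM with SETBP1-D868N. The groups did not overlap, with means of 67.4 ± 2.33 and 81.2 ± 4.94 CPM (SD, n = 3 each) and a fitted log2 fold change of 0.27 (SE 0.04). The DMSO libraries held 23.5, 24.0, 23.5 and 24.7 CPM and the PF-9363 libraries 28.3, 26.5, 25.8 and 26.9 CPM. Again no library overlapped. The means were 23.9 ± 0.60 and 26.9 ± 1.04 CPM (SD, n = 4 each), with a log2 fold change of 0.17 (SE 0.10) that became -0.06 with scaling by library size alone. Gm16897, the antisense gene over Cd34 exons, was tested only in the second experiment, at a log2 fold change of 0.25 (SE 0.20).

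Procr was lower with SETBP1-D868N. Its libraries held 2.95, 2.87 and 2.75 CPM with luciferase and 2.06, 2.19 and 2.20 CPM with SETBP1-D868N. These did not overlap, at means of 2.85 ± 0.10 and 2.15 ± 0.08 CPM (SD, n = 3 each) and a fitted log2 fold change of -0.41 (SE 0.11). In the second experiment Procr was near the counting limit with DMSO, at 1, 2, 4 and 0 counts, and reached 22, 15, 9 and 27 counts with PF-9363. Every PF-9363 library was above every DMSO library, at means of 0.168 ± 0.160 and 2.13 ± 0.64 CPM (SD, n = 4 each). The depth-scaled ratio of summed counts was 13.2 (exact 95% interval 6.08 to 33.9). The fitted log2 fold change was 3.60 (SE 0.54), and it was 4.31 without DMSO replicate 3, the library with the 4 counts.

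Myct1 and Robo4 differed in the first experiment in opposite directions. Myct1 held 2.62, 2.67 and 2.46 CPM with luciferase and 3.64, 3.22 and 3.25 CPM with SETBP1-D868N, at a fitted log2 fold change of 0.38 (SE 0.11). All SETBP1-D868N libraries of Myct1 were above all luciferase libraries. Robo4 had 39, 35 and 29 counts with luciferase and 18, 8 and 10 counts with SETBP1-D868N, or 0.535 ± 0.046 and 0.182 ± 0.081 CPM (SD, n = 3 each). Its groups did not overlap either, and its log2 fold change was -1.55 (SE 0.31). Leaving out SETBP1-D868N replicate 1, the library with 18 counts, gave -1.96. Both genes in the second experiment were below the filter. Myct1 had 6, 3, 3 and 6 counts with DMSO and 9, 6, 9 and 1 with PF-9363, a depth-scaled ratio of 1.75 (exact 95% interval 0.919 to 3.41). The libraries overlapped. Robo4 had a sum of 2 counts with DMSO and 4 with PF-9363, too few to show a difference at this depth.

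Esam, Eng and Tek had overlapping groups in the first experiment. Esam held 2.19, 2.07 and 1.84 CPM with luciferase and 1.86, 1.83 and 1.37 CPM with SETBP1-D868N, a log2 fold change of -0.27 (SE 0.15). Eng held 10.4, 9.96 and 8.93 CPM against 9.22, 10.3 and 9.94 CPM, which fitted as a log2 fold change of 0.01 (SE 0.07). Fpgs, whose exons overlap those of Eng on the other strand, rose by 0.48 on the log2 scale with SETBP1-D868N (SE 0.05, edgeR adjusted p = 4.6e-06). Tek had 16, 22 and 11 counts against 20, 25 and 33, a log2 fold change of 0.63 (SE 0.32), and 1 SETBP1-D868N library lay below the highest luciferase library. In the second experiment none of the 3 passed the filter. Eng had 12, 7, 23 and 6 counts with DMSO and 7, 4, 8 and 0 with PF-9363, a depth-scaled ratio of 0.500 (exact 95% interval 0.277 to 0.866) with overlapping libraries. Fpgs fell there by 0.49 on the log2 scale (SE 0.17, edgeR adjusted p = 0.0094). Esam had sums of 3 and 4 counts. Tek had 0 counts in every DMSO library and 1 count in 1 PF-9363 library.

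Emcn, the other sialomucin, had 1 count in all 14 libraries together, in SETBP1-D868N replicate 3. A count of 0 allows up to 3 counts per library, which is 0.045 to 0.051 CPM at the first experiment's depth, and 0.272 to 0.466 CPM with DMSO or PF-9363. Emcn was therefore at or below the limit of detection in every group.

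**Figure D2:**
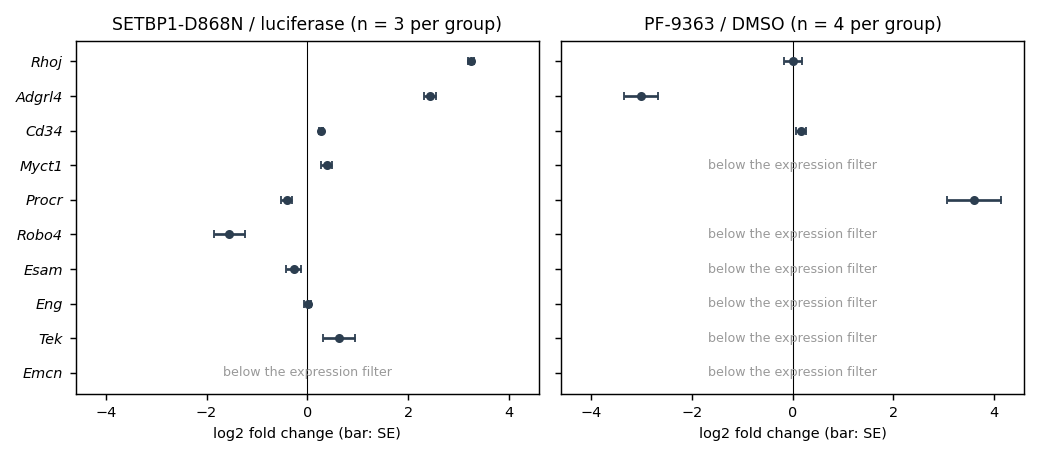
Log2 fold change of each member in both comparisons, SETBP1-D868N over luciferase and PF-9363 over DMSO, with bars of 1 SE and members below the filter on low counts marked as such. Rhoj and Adgrl4 are the highest in the first comparison at 3.24 and 2.43, and Procr and Adgrl4 are the farthest from 0 in the second at 3.60 and -3.01.

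Levels were compared between genes per kilobase of exon sequence. In luciferase cells Cd34 was the most abundant member at 9.25 CPM per kb (SD 0.32, n = 3), followed by Eng at 2.41 and Procr at 1.41. Myct1 at 0.908, Esam at 0.709, Rhoj at 0.530 and Adgrl4 at 0.371 CPM per kb came next, and Robo4 at 0.101 and Tek at 0.0538 were last before Emcn at 0. No neighbours in this order overlapped across the libraries. With SETBP1-D868N, Cd34 was still first at 11.1 CPM per kb, and Rhoj moved from the sixth place to the second, at 5.02. Adgrl4 moved from the seventh place to the fourth, at 1.99 CPM per kb, after Eng at 2.43. Again no neighbours overlapped. In DMSO the order was Cd34 at 3.28, Adgrl4 at 1.13 and Rhoj at 1.03 CPM per kb. There Adgrl4 and Rhoj overlapped, as did all neighbours from Eng at 0.283 downward. In PF-9363 it was Cd34 at 3.69, Procr at 1.05 and Rhoj at 1.04 CPM per kb, with the last 2 overlapping. Adgrl4 was in the sixth place there, at 0.134 CPM per kb, and overlapped its neighbours Eng and Esam.

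Both the SETBP1-D868N libraries of the first experiment and the DMSO libraries of the second carry SETBP1-D868N. With any value under 3 counts set to 3 counts, every DMSO library was below every SETBP1-D868N library for 8 of the 9 members tested in the first experiment, all but Robo4, against 45.9% of the 15794 genes tested there. The means were 32.6 and 6.68 CPM for Rhoj, 81.2 and 23.9 for Cd34, 9.83 and 1.14 for Eng and 1.69 and 0.0679 for Esam. For Adgrl4 they were 9.14 and 5.18 CPM. For Procr they were 2.15 and 0.168 CPM, and for Myct1 3.37 and 0.429 CPM. Tek was at the limit of detection, with 0 counts in every DMSO library. Its value of 3 counts reached 0.299 CPM in DMSO replicate 2, just under the lowest SETBP1-D868N library at 0.305 CPM. The tables were normalized separately, and the experiments differ in RNA input, library kit, depth and solvent, which cannot be told apart from a difference between the cultures.

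**Figure D3:**
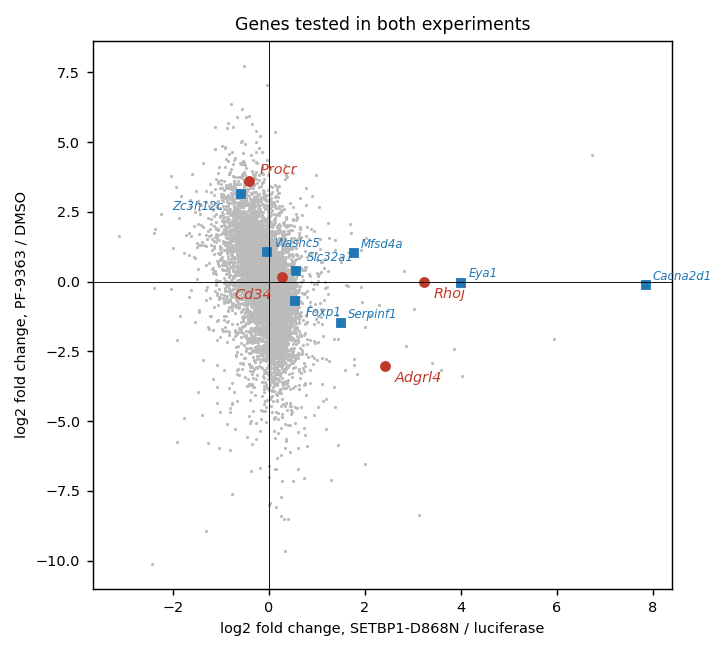
Log2 fold change with SETBP1-D868N (horizontal axis) against log2 fold change with PF-9363 (vertical axis) for genes tested in both experiments (grey), with the 4 members in red and the genes most like them across libraries in blue. Adgrl4 is higher on the first axis and lower on the second, Procr the reverse, and Rhoj and Cd34 lie near 0 on the second axis.

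Across the 14 libraries, with the mean of each experiment taken out of the log2 CPM, the 4 members tested in both experiments had different patterns. Pearson's r was 0.59 between Rhoj and Adgrl4, 0.73 between Rhoj and Cd34 and -0.79 between Adgrl4 and Procr. It was 0.05 between Adgrl4 and Cd34, 0.40 between Cd34 and Procr and -0.13 between Rhoj and Procr. These values are descriptions without tests, since the points share libraries and mostly reflect the differences between groups. The same measure over the 14 libraries was taken for 11150 other genes. Of these, the most like Rhoj were Cacna2d1, a calcium channel subunit (r = 0.994), and Eya1, a transcriptional co-activator and phosphatase (r = 0.981). Most like Adgrl4 were Serpinf1, a secreted serpin (r = 0.988), and Foxp1, a forkhead transcription factor (r = 0.979). Cd34 was nearest to the transporters Mfsd4a (r = 0.924) and Slc32a1 (r = 0.917), and Procr to Zc3h12c, a zinc finger ribonuclease (r = 0.982), and Washc5, a WASH complex subunit (r = 0.979).

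Other genes of the same pathways were read from lists, with each gene tested over all genes. Beside each list's median log2 fold change stands the median of all tested genes, which was 0.00 with SETBP1-D868N and -0.04 with PF-9363. Of all calls, 51.9% and 48.1% were on the higher side in the 2 experiments, and 62.1% and 36.2% with scaling by library size alone. In the bulk libraries used here, a lower level can mean fewer cells of a type or less RNA per cell, which cannot be told apart.

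The angiopoietin and TIE2 list held 10 genes. With SETBP1-D868N, 6 were tested: 2 rose, 1 fell and 3 were not called, with a median of -0.02. Angpt1, the activating ligand of TIE2, rose from 48.4 to 87.0 CPM (log2 fold change 0.85, edgeR adjusted p = 4.9e-09). Tie1, the partner receptor of TIE2, rose by 0.36 (adjusted p = 0.0378 in edgeR's test), a call lost with DESeq2 and on leaving out any of 4 libraries, luciferase replicates 1 and 2 and SETBP1-D868N replicates 1 and 3. The 1 fall was Dok2, an adaptor of TIE2, from 118 to 107 CPM (-0.15, edgeR adjusted p = 0.0012). The count of falls was 2 or 3 without luciferase replicate 3 or any 1 SETBP1-D868N library. With PF-9363, 5 were tested, 4 rose and 1 fell, with a median of 0.61 (2 falls without DMSO replicate 4 or PF-9363 replicates 1, 2 or 3). Angpt1 rose again, from 17.4 to 49.8 CPM (1.52, edgeR adjusted p = 5.9e-14). Svep1, an extracellular matrix protein that binds TIE1, rose from 2.24 to 9.50 CPM (2.08, edgeR adjusted p = 3.1e-09). Dok2 rose from 43.9 to 67.2 CPM (0.61, edgeR adjusted p = 8.05e-08). Tek itself was at 0 to 1 counts in these 8 libraries.

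Of 21 genes of endoglin signalling, 19 were tested in each experiment. With SETBP1-D868N, 2 rose, 8 fell and 9 were not called, with a median of -0.21. Acvrl1, the type I receptor that works with endoglin, fell from 8.84 to 6.00 CPM (-0.56, edgeR adjusted p = 4.5e-05). Tgfbr3, the other co-receptor of this pathway, fell from 8.99 to 6.77 CPM (-0.41, edgeR adjusted p = 4.1e-04). Id3, a BMP target, fell from 16.5 to 12.9 CPM (-0.36, edgeR adjusted p = 0.0037). With PF-9363, 7 rose, 6 fell and 6 were not called, with a median of 0.04, which was -0.19 with scaling by library size alone. The ligand Tgfb3 and the inhibitory Smad6 fell, from 98 to 9 and from 108 to 10 summed counts (edgeR adjusted p = 1.2e-06 and 1.0e-06). Tgfbr3 fell from 87 to 5 summed counts (edgeR adjusted p = 1.8e-06).

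The protein C pathway, in which EPCR presents protein C to thrombin bound to thrombomodulin, was listed with 11 genes. These included the tissue factor and coagulation genes F3, F7, F10 and Tfpi, all called lower with PF-9363, as was Thbd. With SETBP1-D868N, 9 were tested, 3 rose and 4 fell, with a median of -0.18. Thbd, which encodes thrombomodulin, rose from 4.74 to 7.49 CPM (0.66, edgeR adjusted p = 1.8e-04), and Tfpi, the tissue factor inhibitor, from 12.0 to 16.3 CPM (0.44, edgeR adjusted p = 1.9e-05). F10, coagulation factor X, fell from 279 to 212 CPM (-0.39, edgeR adjusted p = 2.9e-07). With PF-9363, 8 were tested, 3 rose and 5 fell, with a median of -0.47, and 1 rose with scaling by library size alone. F2r, the thrombin receptor, rose from 49.3 to 442 CPM (3.16, edgeR adjusted p = 1.5e-24). F3, which encodes tissue factor, fell from 250 to 10 summed counts (edgeR adjusted p = 2.0e-11). Pros1, the cofactor of protein C, rose by 0.87 (edgeR adjusted p = 0.0125), a call lost with scaling by library size alone.

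In the list of SLIT ligands and ROBO receptors and effectors, 6 of 10 genes were tested with SETBP1-D868N, of which 1 rose and 2 fell, with a median of -0.32. Robo3, which lies 0.554 kb from Robo4 on chromosome 9, rose from 2.93 to 3.89 CPM (0.41, edgeR adjusted p = 0.0127). That call was lost without luciferase replicate 1 and without SETBP1-D868N replicate 1. In the second experiment Robo3 had 0 counts with DMSO and a sum of 33 with PF-9363, below the filter. Srgap2 and Srgap3, GTPase-activating proteins downstream of ROBO, fell by 0.24 and 0.40 (edgeR adjusted p = 3.0e-04 and 0.0069). With PF-9363, 3 genes were tested, of which Unc5b (2.02) and Srgap2 (0.59) rose and Srgap3 (-1.25) fell, with edgeR adjusted p = 4.7e-05, 2.2e-07 and 0.0010.

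Of 12 tested adhesion receptors of the Adgrl4 class, 4 rose and 4 fell with SETBP1-D868N, with a median of -0.08. Adgrg1, also a stem cell surface protein, rose from 116 to 213 CPM (0.88, edgeR adjusted p = 3.2e-09). Adgre1, the macrophage F4/80 antigen, fell from 170 to 107 CPM (-0.67, edgeR adjusted p = 1.5e-08), and Adgrg5 from 2.96 to 1.36 CPM (-1.12, edgeR adjusted p = 4.1e-05). With PF-9363, 9 were tested, 6 rose and 3 fell, with a median of 0.78. Adgre1 rose from 83.3 to 512 CPM (2.62, edgeR adjusted p = 3.7e-22), and Adgra3 fell from 7.65 to 1.22 CPM (-2.62, edgeR adjusted p = 1.9e-10). Adgrg6 rose from 4 to 89 summed counts (edgeR adjusted p = 1.2e-08).

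Podxl, which encodes the CD34-related sialomucin podocalyxin, rose from 28.6 to 40.1 CPM with SETBP1-D868N (0.49, edgeR adjusted p = 1.9e-06). With PF-9363, it rose from 3.45 to 6.97 CPM (1.00, edgeR adjusted p = 1.7e-04). Crkl, an adaptor that binds CD34, rose by 0.28 with PF-9363 (edgeR adjusted p = 0.0011), a call lost with scaling by library size alone. In the ESAM family, 4 of 7 genes were tested, and 3 fell and 0 rose in each experiment, with medians of -0.73 and -1.37 (-0.17 and -0.78 with no filter on low counts). The junction protein F11r fell from 13.2 to 6.51 CPM with SETBP1-D868N (-1.02, edgeR adjusted p = 3.9e-07). With PF-9363 it fell from 4.14 to 1.02 CPM (-1.97, edgeR adjusted p = 1.1e-05). Jam2 fell from 1.98 to 1.23 CPM with SETBP1-D868N (-0.69, edgeR adjusted p = 0.0013). Jam3, another junction protein, fell from 70 to 2 summed counts with PF-9363 (edgeR adjusted p = 1.6e-06). Clmp fell by 0.76 in both (edgeR adjusted p = 0.0078 and 0.0203), and the second call was lost without DMSO replicate 2, PF-9363 replicate 2 or PF-9363 replicate 4.

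The stem cell and endothelial labels were checked against other markers. Of 16 further surface genes of stem cells and progenitors, 3 rose, 7 fell and 6 were not called with SETBP1-D868N, with a median of -0.05. The progenitor genes among them include Cd48, called higher in both experiments, and Flt3, called lower in both. Ly6a, which encodes SCA-1, fell from 12.0 to 5.56 CPM (-1.11, edgeR adjusted p = 4.6e-05), and Slamf1, which encodes CD150, from 4.17 to 2.26 CPM (-0.89, edgeR adjusted p = 1.3e-04). Cd27, a TNF receptor family member of progenitors, rose from 1.74 to 6.67 CPM (1.94, edgeR adjusted p = 2.7e-08). With PF-9363, 15 were tested, 7 rose and 5 fell, with a median of 0.32, or 0.09 with scaling by library size alone. Slamf1 rose from 0.473 to 4.98 CPM (3.35, edgeR adjusted p = 6.8e-09), the tetraspanin Cd9 from 160 to 778 CPM (2.28, edgeR adjusted p = 1.5e-21) and the adhesion protein Alcam from 9.88 to 103 CPM (3.37, edgeR adjusted p = 1.2e-09).

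Endothelial markers were split by level. Cldn5, Sox17 and Clec14a had 0 counts in all 14 libraries, and Cdh5, which encodes VE-cadherin, had 22 counts in luciferase and 22 in SETBP1-D868N libraries together, and 2 and 4 in DMSO and PF-9363. Only 9 of 20 listed endothelial genes were tested in the first experiment, where 5 rose and 1 fell with a median of 0.26. The rises numbered 3 with the replicate block, 2 without luciferase replicate 2, and 3 without luciferase replicate 3 or SETBP1-D868N replicates 1 or 3. The median was 0.08 without SETBP1-D868N replicate 3, with 2 falls, and -0.003 with no filter on low counts. In the second, 6 were tested, 1 rose and 4 fell, with a median of -0.58, and 2 rose on leaving out any DMSO library or PF-9363 replicate 2. The summed level of the list was 532 to 540 CPM in luciferase, 532 to 563 in SETBP1-D868N, 658 to 720 in DMSO and 671 to 721 in PF-9363 libraries. Most of it was Pecam1, an adhesion protein that many blood cells carry. Other listed genes were also well detected: Flt1, a VEGF receptor, stood at 51.4 CPM in luciferase and 97.7 CPM in DMSO libraries on average. With SETBP1-D868N, the adhesion protein Icam2 rose from 26.5 to 34.5 CPM (0.38, edgeR adjusted p = 1.1e-05) and Plvap, of endothelial fenestrae, from 0.908 to 1.63 CPM (0.84, edgeR adjusted p = 0.0042). The 1 fall was Vwf, also a platelet gene, from 39.9 to 28.3 CPM (-0.50, edgeR adjusted p = 0.0053). With PF-9363, Vwf was the 1 rise, from 31.9 to 219 CPM (2.78, edgeR adjusted p = 7.4e-06). Pecam1 fell from 538 to 401 CPM and Flt1 from 97.7 to 58.4 CPM (edgeR adjusted p = 1.6e-07 and 1.4e-09). The like sums of DMSO and PF-9363 libraries thus hold opposite moves. Egfl7, a secreted endothelial protein, fell from 3.35 to 1.72 CPM (-0.93, edgeR adjusted p = 0.0063), and Nos3, which encodes endothelial nitric oxide synthase, from 55 to 1 summed counts (edgeR adjusted p = 2.6e-06). Whether endothelial cells were present was not tested.

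The heptad of transcription factors that bind together at stem cell and endothelial genes was expressed in all groups. With SETBP1-D868N, 4 of 7 rose and 0 fell, with a median of 0.15. Lmo2 rose from 92.3 to 136 CPM (0.56, edgeR adjusted p = 3.0e-07), Erg from 34.7 to 40.7 CPM (0.23, edgeR adjusted p = 2.9e-04) and Gata2 from 500 to 580 CPM (0.21, edgeR adjusted p = 3.3e-05). With PF-9363, 3 rose and 4 fell, with a median of -0.20, or -0.43 with scaling by library size alone. Erg fell from 55.5 to 28.7 CPM (-0.94, edgeR adjusted p = 3.1e-07), while Tal1 rose from 15.0 to 74.3 CPM (2.31, edgeR adjusted p = 4.7e-16) and Gata2 from 56.0 to 296 CPM (2.40, edgeR adjusted p = 5.4e-22).

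Markers of other blood cells moved with both comparisons, and their part in the members' values was not tested. With SETBP1-D868N, 6 of 8 mast cell markers fell, the summed level going from 3415 to 3634 CPM in luciferase libraries to 2560 to 2673 CPM. All 8 macrophage markers fell, from 892 to 927 CPM to 537 to 568 CPM, and 7 of 8 tested megakaryocyte markers fell, from 419 to 435 CPM to 370 to 407 CPM. Granulocyte precursor markers rose in 5 of 6 cases, from 4901 to 5193 CPM to 6581 to 6684 CPM. With PF-9363, all 8 mast cell markers rose, from 723 to 915 CPM in DMSO libraries to 3942 to 4917 CPM. All 8 macrophage markers rose as well, from 415 to 511 CPM to 3017 to 3632 CPM. All 6 granulocyte precursor markers fell, from 5812 to 6941 CPM to 331 to 523 CPM, and Mpo alone went from 96920 to 214 summed counts. Megakaryocyte markers rose in 4 of 6 tested cases, and in 2 without DMSO replicate 3, without PF-9363 replicate 4 or with scaling by library size alone. Their summed level went from 47.6 to 60.9 CPM in DMSO libraries to 222 to 242 CPM. Stromal markers, which could mark marrow cells outside of the blood, were tested for 6 of 12 genes in the first experiment, where 4 rose and 0 fell, and for 4 in the second, where 1 rose and 0 fell. The 4 rises became 2 without luciferase replicate 3 or SETBP1-D868N replicate 1, and without SETBP1-D868N replicate 3 there was 1 fall. With PF-9363, 2 rose without DMSO replicates 1 or 3, and 3 without PF-9363 replicate 3. Pdgfrb, a receptor of pericytes, rose by 0.29 (edgeR adjusted p = 0.020) and Runx2, the bone regulator, by 0.56 (edgeR adjusted p = 2.2e-05) with SETBP1-D868N, and Pdgfrb rose by 1.49 with PF-9363 (edgeR adjusted p = 5.3e-06). The call of Pdgfrb in the first experiment was lost without luciferase replicates 2 or 3 or SETBP1-D868N replicate 1. The summed stromal level was 46.0 to 48.6 CPM in luciferase, 59.3 to 64.8 in SETBP1-D868N, 59.1 to 64.7 in DMSO and 64.8 to 74.0 in PF-9363 libraries. Most of it in luciferase libraries was Runx2 at 25.6 and Pdgfrb at 12.8 CPM on average. Dcn and Lum had 0 counts in the first experiment, and Cxcl12, Lepr, Pdgfra and Col3a1 were below the filter there. Whether stromal cells were present was not tested.

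Single marker genes of these blood cells gave the following values. With SETBP1-D868N, the mast cell proteases Tpsab1, Tpsb2 and Mcpt4 fell, with log2 fold changes of -2.03, -1.86 and -0.99 (edgeR adjusted p = 6.5e-07, 2.2e-05 and 0.0012). The complement genes C1qa, C1qc and C1qb of macrophages fell, with log2 fold changes of -1.09, -0.99 and -0.88 (edgeR adjusted p = 1.3e-05, 4.1e-06 and 0.0024). The platelet genes Gp1ba, Ppbp and Pf4 fell, with log2 fold changes of -0.82, -0.76 and -0.62 (edgeR adjusted p = 3.4e-07, 2.45e-06 and 1.2e-05). The granule genes Ctsg and Mpo and the membrane gene Ms4a3 of granulocyte precursors rose by 0.60, 0.40 and 0.34 (edgeR adjusted p = 1.2e-08, 3.1e-07 and 6.4e-07). With PF-9363, Tpsab1, Fcer1a and Cpa3 of mast cells rose by 3.79, 3.11 and 2.67 (edgeR adjusted p = 2.1e-13, 5.6e-16 and 1.9e-17). Macrophage Mrc1, C1qa and Csf1r rose by 3.17, 2.82 and 2.77 (edgeR adjusted p = 4.7e-19, 1.2e-10 and 1.5e-23). Megakaryocyte Itga2b and Gp5 rose by 2.65 and 1.28, and Ppbp fell by 0.82 (edgeR adjusted p = 1.4e-22, 0.0052 and 9.8e-04). The granule enzymes Elane, Mpo and Prtn3 fell, with log2 fold changes of -9.66, -8.49 and -7.14 (edgeR adjusted p = 2.1e-09, 4.0e-07 and 5.7e-06).

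**Figure D4:**
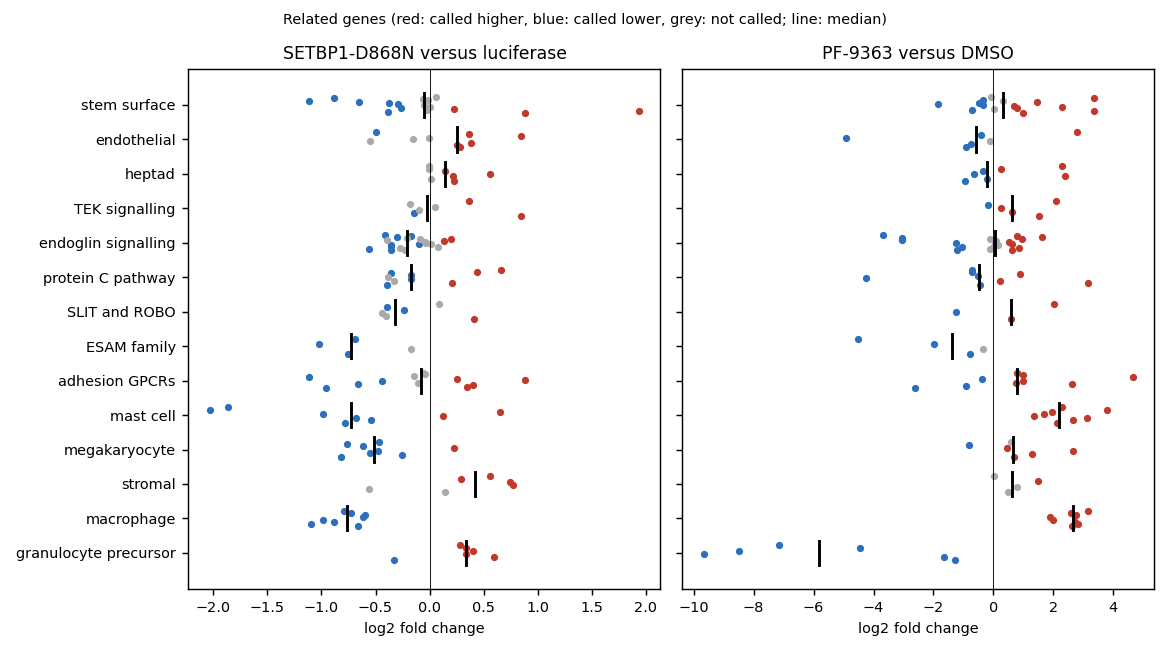
Log2 fold change of every tested gene of 14 lists in both comparisons, with genes called higher in red, called lower in blue and not called in grey, and the list's median as a line. The ESAM family median lies below 0 in both, and the mast cell and macrophage medians lie below 0 with SETBP1-D868N and above 2 with PF-9363.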

How the data were processed

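RNA was sequenced in 14 libraries, grouped by sample title. Per the labels, the deposited values are raw read counts for each gene symbol, in 1 table per experiment. Per the submitters' processing notes, STAR, DESeq2, GRCm38 and mm10 were used. The counting program, annotation, strand handling and treatment of duplicates are not given in the sources used here. The first experiment used 500 ng of RNA and the Watchmaker kit and the second 100 ng and Novogene, so tests were made within each table.

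All further steps used R 4.3.3. In edgeR 4.0.16, genes past filterByExpr (minimum count 10, minimum total 15) were scaled by TMM and compared with glmQLFit (robust) and glmQLFTest, with Benjamini-Hochberg adjustment over all tested genes. Calls needed an adjusted p under 0.05. The standard error is the absolute log2 fold change over the square root of F. The test was tested on simulated data. Intervals of summed counts are exact conditional binomial ones. Levels per kb use the exon union of GENCODE M21.

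The members and lists were chosen with earlier results of these data known. From each list, text values are for up to 3 called genes per experiment with the largest log2 fold change. Their higher group averaged at least 1 CPM. Further genes are named where they describe what a list holds. The 2 genes most like a member were taken by Pearson's r of log2 CPM (prior count 2) among 11150 genes tested in both experiments. These averaged at least 1 CPM in at least 1 group, and clone, Gm, Rik, pseudogene and mitochondrial symbols were left out. Results of 2 of the 16 lists are not reported here as lists. Alternatives were RLE or library-size scaling, other filters, DESeq2 1.42.0, limma-voom of limma 3.58.1, no robust estimation, the replicate number as a block, and leaving out each library.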

Additional observations from a re-analysis of the deposited data

How the results depend on the processing

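In each of the alternatives the members past the threshold numbered 6 with SETBP1-D868N (4 higher, 2 lower) and 2 with PF-9363 (1 higher, 1 lower). Over all genes, 6436 to 7902 were called with SETBP1-D868N (7448 in the text) and 10015 to 11566 with PF-9363 (10228). Leaving out each library gave 6436 to 7086 and 10015 to 10261. With the replicate number as a block, 6640 and 10124 genes were called, and 6 and 2 members. Samples with the same number did not deviate together, at correlations from -0.097 to -0.037 with SETBP1-D868N and from -0.040 to 0.0075 with PF-9363. No library correlated best with its own number, so the numbers were not taken to pair the samples. The block changed no member's side of the threshold. Nothing is read from these member counts, because the members were chosen from these same contrasts. Of 92 list genes named for the size of their change, 6 lost their call in at least 1 alternative, and each is named beside its value. Of the recomputed list counts, 902 stayed within 1.5 times and 58 did not, and 39 of the recomputed list medians moved by more than the typical SD of the list's genes between replicates, against 441 that did not. Those that bear on a direction are given beside the lists, and the cause was not tested. Library totals were lower in the second experiment, where 6 of 10 members were below the filter. Levels scaled by depth were lower there too, as for Eng at 1.14 CPM with DMSO against 9.83 CPM with SETBP1-D868N. The part of depth in this was not tested.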

Other observations

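Genes next to the members had values of their own, of which some are given here. Of all tested genes, 47.2% were called with SETBP1-D868N and 76.0% with PF-9363. Cdk9, the nearest protein-coding gene on 1 side of Eng, was not called in either experiment. Its log2 fold changes were 0.03 with SETBP1-D868N and 0.13 with PF-9363. Plxna2 and Cd46, the protein-coding neighbours of Cd34, were not called with SETBP1-D868N. With PF-9363 they rose by 1.67 and 2.00 (edgeR adjusted p = 1.8e-05 and 6.6e-07). Adgrl2, Ppp3ca and Mmp24, protein-coding neighbours of Adgrl4, Emcn and Procr, rose there by 0.78, 0.45 and 0.44 (edgeR adjusted p = 0.0024, 9.0e-08 and 0.0209). Ift74, beside Tek, fell by 3.31 on the log2 scale with PF-9363 (edgeR adjusted p = 2.3e-08), while Tek had 0 or 1 counts. Syne1, beside Myct1, fell by 0.88 with SETBP1-D868N and rose by 1.31 with PF-9363 (edgeR adjusted p = 0.0320 and 2.1e-05). A330023F24Rik, the nearest gene on 1 side of Cd34, fell by 0.61 with SETBP1-D868N and rose by 2.76 with PF-9363 (edgeR adjusted p = 0.0088 and 2.0e-06). Kcnh5 and Gphb5, the neighbours of Rhoj, were below the filter in both experiments.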
